A study of Mus musculus with 6 samples.

Results

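The genes of this account encode the translation initiation factor eIF2, its nucleotide exchange factor eIF2B and the kinases that act on eIF2. They were chosen by name from the deposited gene table, in which 10 of 56748 listed genes were members: 2 eIF2 subunits (Eif2s1 and Eif2s2), 4 eIF2B subunits (Eif2b1, Eif2b3, Eif2b4 and Eif2b5) and 4 eIF2 alpha kinases (Eif2ak1, Eif2ak2, Eif2ak3 and Eif2ak4). All 10 had reads in every library and passed the filter on low values. The measurement was ribosome profiling, which sequences the short stretches of mRNA, here 24 to 36 nt long, that ribosomes shield from a nuclease. Cells were lineage-negative and c-Kit positive, labelled as hematopoietic stem cells, and were taken 12 days after 4.5 Gy of irradiation from wild-type (WT) mice or from Mov10 knockout mice, with 3 libraries per genotype. Both groups were irradiated, and the labels used here give no strain, sex, age or description of the knockout allele. Whether the 3 libraries of a genotype come from different animals is not labelled either, and the p-values measure only the spread between these libraries, which may be technical.

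eIF2 brings the initiator tRNA to the small ribosomal subunit in its GTP-bound form, and eIF2B recharges it with GTP after each round. The eIF2 alpha kinases each answer a different stress and phosphorylate the alpha subunit, which turns eIF2 into an inhibitor of eIF2B. General initiation then slows, while a few mRNAs with upstream reading frames, Atf4 among them, are translated more, a program known as the integrated stress response. Footprints count the ribosomes on the mRNAs of these proteins. They show neither the phosphorylation of eIF2 alpha nor the activity of eIF2B, and without matched mRNA levels they do not separate mRNA amount from translation per mRNA. In such bulk samples, fewer cells of a type and less RNA per cell cannot be told apart.

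Sequencing was deeper in WT, where libraries held between 2260348 and 2499634 reads, than in the knockout, where they held between 1118345 and 1352517, so depth and genotype cannot be told apart. Levels are given as normalized reads, the deposited unit, in which 1 read is worth 0.614 to 0.681 in WT and 1.34 to 1.62 in the knockout. Mov10 itself held 110, 106 and 104 normalized reads in the WT libraries and 51.0, 89.0 and 46.3 in the knockout libraries. It was lower in 3 of 3 knockout libraries without passing the threshold (limma adjusted p = 0.0598), and it was called under 7 of 22 alternatives, among them TMM (adjusted p = 0.0453), library totals (adjusted p = 0.0248) and leaving out knockout replicate 2 (adjusted p = 0.00692). Over all alternatives its adjusted p ran from 0.00692 to 0.205. Replicates resembled each other less in the knockout. Over genes with at least 50 reads in a pair, the variance between 2 libraries was 1.60 to 2.52 times counting variance within WT and 6.49 to 7.47 times within the knockout.

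Within this set, 1 gene was called higher in the knockout, Eif2b5, and 1 was called lower, Eif2ak4, while 8 were not called. A call means a Benjamini-Hochberg adjusted p under 0.05 from limma over all 17114 genes tested, of which 21.2% were called, 10.3% higher and 10.9% lower. The members' 2 calls of 10 lie close to that background, which includes genes with few reads. Among the 6307 genes whose mean reached 50 normalized reads, all 10 members included, limma called 2690. That is a larger share than the members', of which 1 was again called higher and 1 lower. DESeq2 and edgeR, both run on recovered reads, called 1 member higher and 1 lower as well, again Eif2b5 and Eif2ak4. DESeq2 called 21.0% of its genes, 11.9% higher and 9.1% lower, and edgeR called 29.5%, 16.5% higher and 13.0% lower. In the authors' deposited values these were also the members with an adjusted p under 0.05, at 2.19e-05 for Eif2b5 and 0.00361 for Eif2ak4. Of the 28104 genes with a deposited p-value, 11.8% passed, 6.58% higher and 5.2% lower. Any of them without an adjusted p counts there as not passing, so the share among adjusted genes may be larger. The median log2 fold change of the 10 members was 0.076, beside -0.17 for all genes tested, and 8 of the 10 lay above the latter. This gap depended on which genes were compared: among genes whose mean reached 50 normalized reads the median of all was 0.0094. With DESeq2 the median of all was 0.21, above the members' 0.17. That median covers 28131 genes, more than the 15587 that received an adjusted p from DESeq2. Library totals in place of the authors' scaling moved the median of all genes by -0.21 and that of the members to -0.15.

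**Figure D1:**
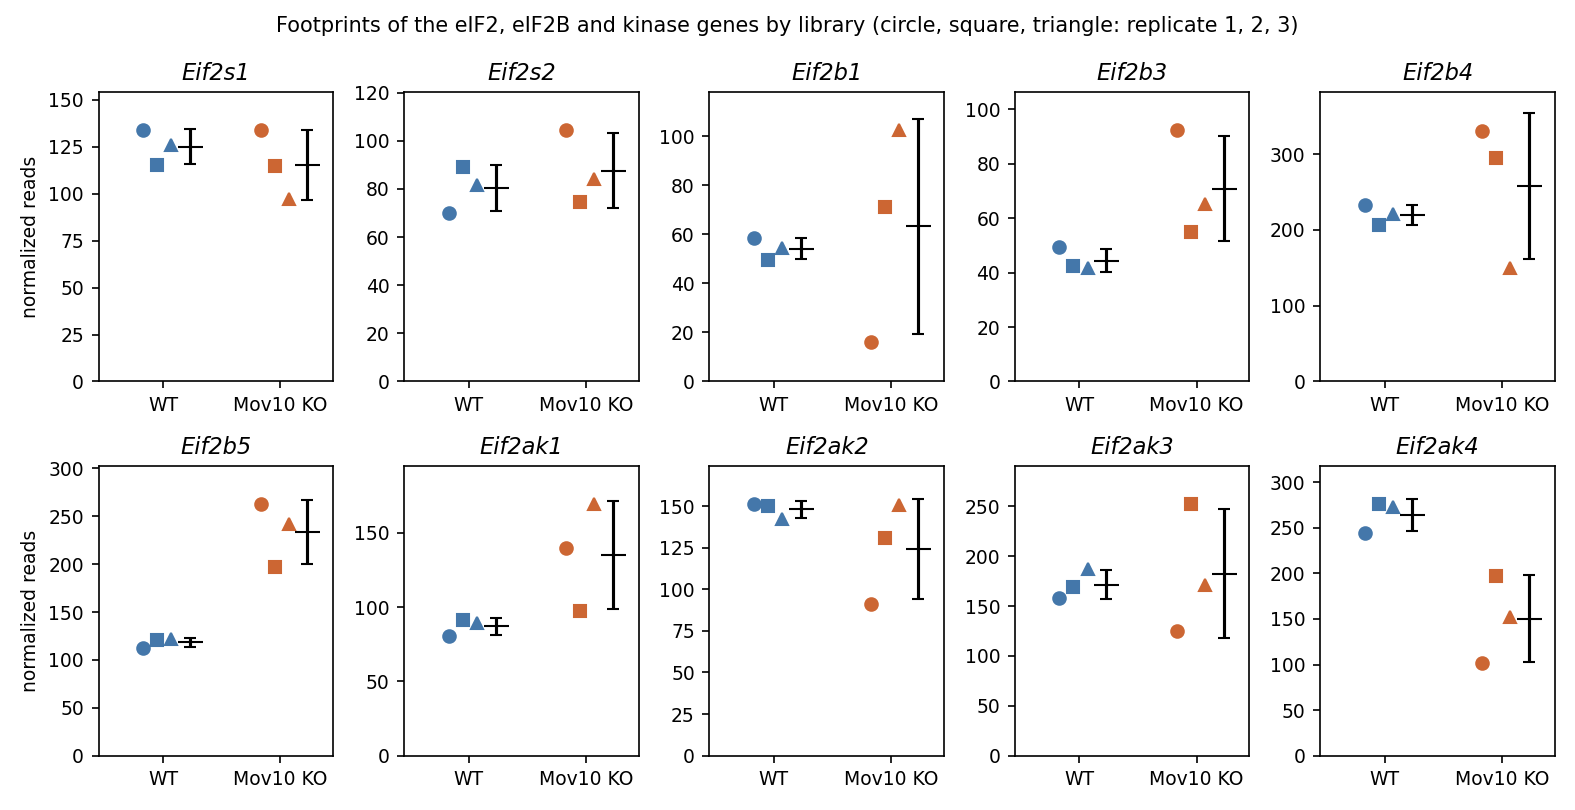
Normalized reads (y axes, linear from 0) of each member in the WT libraries (blue) and Mov10 knockout libraries (orange), with the mean and SD of 3 libraries in black. All knockout points of Eif2b5 lie above all WT points, all of Eif2ak4 lie below them, and the knockout points of Eif2b1 run from 16.1 to 103.

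The levels of the alpha and beta subunits of eIF2 overlapped between the genotypes. Eif2s1 encodes the alpha subunit, which carries the serine that the kinases phosphorylate (chromosome 12, 78908593 to 78933784, GRCm39). It held 134, 115 and 126 normalized reads in WT and 134, 115 and 96.9 in the knockout. The groups overlapped, and the log2 fold change of -0.13 had a 95% interval of -0.54 to 0.29, which leaves out a 1.5-fold fall and a 1.5-fold rise.

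Eif2s2 encodes the beta subunit, which binds mRNA and eIF2B (chromosome 2, 154713330 to 154734855). It held 70.1, 89.0 and 81.8 normalized reads in WT and 105, 74.4 and 83.9 in the knockout, with 1 knockout library above all WT libraries. Its log2 fold change was 0.12 with an interval of -0.38 to 0.61, which reaches a 1.53-fold rise. Neither eIF2 subunit was called by limma, edgeR or DESeq2, and 0 of 2 had an unadjusted p under 0.05. Summed over both genes, the level was 205 ± 2.16 (SD, n = 3) in WT and 203 ± 31.3 in the knockout.

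The gamma subunit of eIF2 binds GTP and the initiator tRNA and is encoded in the mouse by an X-linked gene, Eif2s3x, and a Y-linked gene, Eif2s3y, which are close copies, so that some of their reads cannot be assigned with certainty. Eif2s3y was lower in the knockout, at 72.1, 77.3 and 70.2 normalized reads in WT and 24.1, 24.3 and 21.7 in the knockout, 3.13-fold lower (log2 fold change -1.61, limma adjusted p = 0.00442). Its call was lost without WT replicate 2 (adjusted p = 0.0502). Eif2s3x held 68.2, 73.0 and 72.2 in WT and 41.6, 141 and 73.8 in the knockout, where replicate 2 stood above and replicate 1 below the other libraries, and it was not called (log2 fold change 0.089, interval -0.81 to 0.99). Beside this, another Y-linked gene, Kdm5d, fell from 70.9 ± 6.71 to 16.8 ± 4.32 (adjusted p = 0.00380), and Xist, the noncoding RNA of the inactive X, rose 3.14-fold to 354 ± 73.4 (adjusted p = 0.000631). The Y-linked genes Ddx3y and Uty were not called, at log2 fold changes of -0.56 and -1.13. These 4 genes were picked after the level of Eif2s3y was seen. The part of the animals' sex in the level of Eif2s3y, of the members and of the other genes was not tested. Sex is not labelled, so a difference in it between the groups could not be told apart from genotype for any gene.

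Among the eIF2B subunits, Eif2b5 rose and the other 3 members were not called. Eif2b5 encodes epsilon, the catalytic subunit that exchanges the nucleotide on eIF2 (chromosome 16, 20317567 to 20328073). It held 113, 120.3 and 122 normalized reads in the WT libraries and 263, 197 and 242 in the knockout libraries. Every knockout library lay above every WT library, and the WT values were close to each other. The ratio of means was 1.98, the log2 fold change 0.97 (SE 0.16, interval 0.61 to 1.32) and the limma adjusted p 0.00391. The gene was higher in 3 of 3 knockout libraries, and its call held under all 22 alternative settings, with adjusted p from 2.48e-05 to 0.0327.

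Eif2b3 encodes gamma, which works with epsilon in the catalytic part of the complex (chromosome 4, 116876599 to 116944503). It held 49.3, 42.3 and 41.6 normalized reads in WT and 92.5, 55.0 and 65.1 in the knockout, where all libraries again lay above all WT libraries. The log2 fold change was 0.63 (SE 0.27, interval 0.0073 to 1.26) and did not pass the threshold (limma adjusted p = 0.142). No alternative brought it past the threshold, with adjusted p from 0.0540 to 0.484.

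Eif2b4 encodes delta, a subunit of the regulatory core that senses phosphorylated eIF2 (chromosome 5, 31344902 to 31350774). It held 232, 206 and 221 normalized reads in WT and 330, 294 and 149 in the knockout. Knockout replicate 3 lay below all WT libraries and the other knockout libraries above them. Without replicate 3 the log2 fold change went from 0.15 to 0.50 and passed (limma adjusted p = 0.0229), and without knockout replicate 1 it was -0.069. Eif2b4 shares 204 bases with Snx17 on the opposite strand, and whether the authors counted by strand is not given in the sources used here.

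Eif2b1 encodes alpha, the subunit of the regulatory core that holds the complex together (chromosome 5, 124708276 to 124717194). It held 58.4, 49.7 and 54.5 normalized reads in WT and 16.1, 71.2 and 103 in the knockout. Knockout replicate 1 rested on 12 reads, with an exact Poisson 95% interval of 8.32 to 28.1 normalized reads for counting error, which lies below every WT value. The mean was higher in the knockout by 1.17-fold, but the mean of log2 values was lower, at -0.13 (interval -1.48 to 1.23). Without knockout replicate 1 the log2 fold change was 0.65 (limma adjusted p = 0.0803), so 1 library set its direction.

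The remaining subunit, beta, is encoded by Eif2b2 and completes the regulatory core. It held 42.8, 39.3 and 32.7 normalized reads in WT and 46.9, 8.09 and 37.6 in the knockout, and it was not called (log2 fold change -0.61, adjusted p = 0.522). Here knockout replicate 2 stood low, and without it the log2 fold change was 0.14. The low libraries thus differed from subunit to subunit: replicate 1 for Eif2b1, replicate 2 for Eif2b2 and replicate 3 for Eif2b4. Summed over the 4 member genes, eIF2B footprints came to 437 ± 17.4 in WT. In the knockout they came to 626 ± 71.8, which is 1.43 times as much and includes the called rise of Eif2b5.

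**Figure D2:**
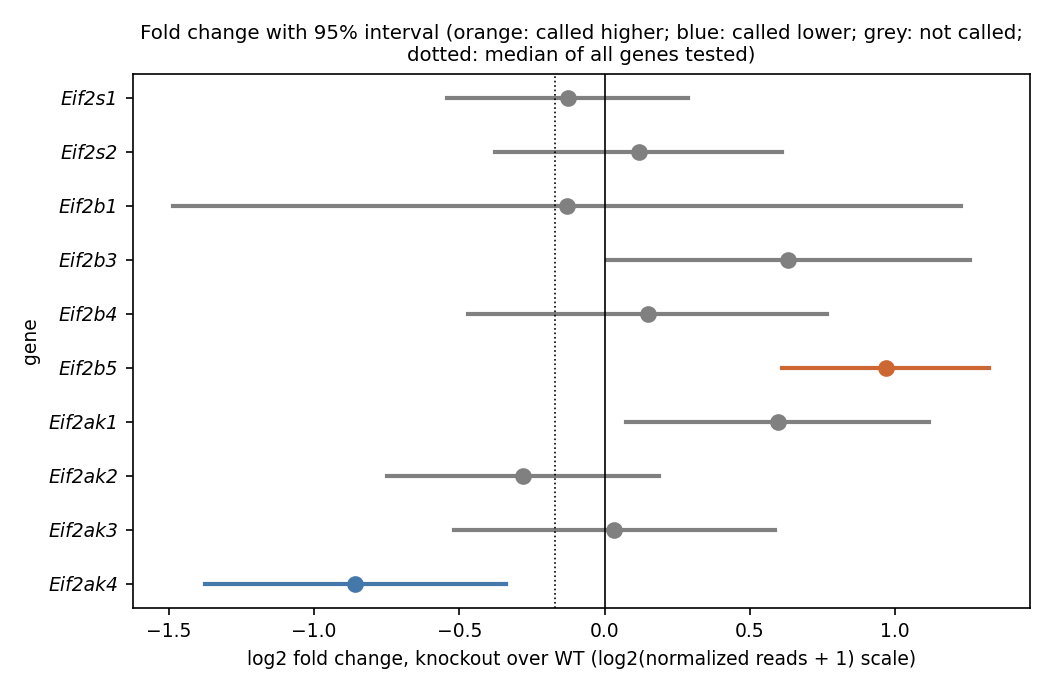
Log2 fold change of each member, knockout over WT (x axis), with its 95% interval from limma, beside 0 (solid line) and the median of all genes tested at -0.17 (dotted line). Eif2b5 at 0.97 and Eif2ak4 at -0.86 were called, and the interval of Eif2b1 is the widest, from -1.48 to 1.23.

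Of the kinases, Eif2ak4 fell in the knockout and the other 3 were not called. Eif2ak4 encodes GCN2, which senses uncharged tRNA and stalled ribosomes when amino acids run short (chromosome 2, 118219099 to 118305715). It held 244, 276 and 273 normalized reads in the WT libraries and 102, 197 and 152 in the knockout libraries. All knockout libraries lay below all WT libraries, with replicate 1 lowest. The level was 1.76-fold lower, with a log2 fold change of -0.86 (SE 0.23, interval -1.38 to -0.34, limma adjusted p = 0.0300), and 3 of 3 knockout libraries showed the direction. The direction held under all 22 alternatives and the call under 17 of them. Leaving out WT replicate 1, 2 or 3 ended the call (adjusted p = 0.0965, 0.133 and 0.130), and so did leaving out knockout replicate 3 (adjusted p = 0.0522). A fit without a variance trend also ended it (adjusted p = 0.113).

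Eif2ak1 encodes HRI, the heme-regulated kinase that matches globin synthesis to heme in red cell precursors and also answers mitochondrial stress (chromosome 5, 143803543 to 143841069). It held 80.5, 91.4 and 89.3 normalized reads in WT and 139, 97.0 and 169 in the knockout. All knockout libraries lay above all WT libraries, replicate 2 by the least. The log2 fold change of 0.60 (SE 0.23, interval 0.073 to 1.12) did not pass the threshold (limma adjusted p = 0.101). Without knockout replicate 2 it was 0.81 and passed (adjusted p = 0.0169, within 0.0169 to 0.444 over all alternatives). Of 10 erythroid marker genes, 5 were called higher and 1 lower, and their summed level ran from 1214 to 1314 normalized reads in WT and from 2821 to 2895 in the knockout. Of the adult globin genes listed, Hbb-bs and Hba-a1, at means of 4.84 and 23.0 in WT, were at 0 in 2 knockout libraries each. Hba-a1 was called lower (limma adjusted p = 0.00454), while Hbb-bs, Hbb-bt and Hba-a2 were not called. Levels of Hbb-bt and Hba-a2 were 15.5 ± 1.13 and 11.4 ± 5.22 in WT and 23.1 ± 10.3 and 25.2 ± 23.9 in the knockout. The part of erythroid cells in the level of Eif2ak1 was not tested. Eif2ak1 also shares bases with Aimp2 and Ankrd61 on the opposite strand, whose levels were lower in the knockout in the authors' deposited means, at 26.7 against 41.0 and 1.93 against 3.16.

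Eif2ak2 encodes PKR, which double-stranded RNA activates and interferon induces (chromosome 17, 79159993 to 79190002). It held 151, 150.4 and 142 normalized reads in WT and 91.2, 131 and 150.5 in the knockout. Replicates 1 and 2 of the knockout lay below all WT libraries and replicate 3 among them, and the gene was not called (log2 fold change -0.28, interval -0.75 to 0.19, adjusted p = 0.375). Of 10 interferon-stimulated genes tested beside it, limma called 3 lower, Usp18 by 3.06-fold, Isg15 by 4.37-fold and Irf7 by 2.28-fold. Over all genes tested, 10.9% were called lower. Irf7 was near the threshold (limma adjusted p = 0.0450) and lost its call under 9 of 22 alternatives, Usp18 and Isg15 under 3 each. Limma called 0 of the 10 higher, with 0 higher and 6 lower at an unadjusted p under 0.05, and edgeR and DESeq2 also called 0 higher. The number of lower genes was 0 when WT replicate 1, 2 or 3 was left out and 6 without knockout replicate 1. Whether Eif2ak2 differed from those 10 genes was not tested.

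Eif2ak3 encodes PERK, the transmembrane kinase that senses unfolded proteins in the endoplasmic reticulum (chromosome 6, 70821499 to 70882229). It held 158, 169 and 187 normalized reads in WT and 125, 252 and 171 in the knockout, with 1 knockout library above, 1 below and 1 among the WT libraries. The log2 fold change was 0.034 (interval -0.52 to 0.59, limma adjusted p = 0.937), and its sign changed with the scaling: it was -0.036 with TMM and -0.20 with library totals.

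Because a share within a family does not depend on how libraries are scaled, the reads of each kinase were also set against the reads of all 4 kinases in the same library. Eif2ak4 held 38.5%, 40.2% and 39.4% of them in WT and 22.3%, 29.1% and 23.6% in the knockout. The Wilson 95% intervals, which cover counting error only, reached down to 35.5% in WT and up to 33.6% in the knockout, so the groups did not meet. Eif2ak1 held 12.7%, 13.3% and 12.9% in WT and 30.5%, 14.3% and 26.4% in the knockout, where replicate 2 was within counting error of WT. Eif2ak2 kept 22.1% ± 1.64 in WT and 20.9% ± 2.21 in the knockout. Within the 4 eIF2B genes, the share of Eif2b5 was 24.9%, 28.7% and 27.8% in WT and 37.5%, 31.9% and 43.3% in the knockout, and the counting intervals of knockout replicate 2 and of WT met. A share also moves when the other genes of the family do, so these values describe balance within a family. They come from the same libraries as the levels and give no separate evidence.

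**Figure D3:**
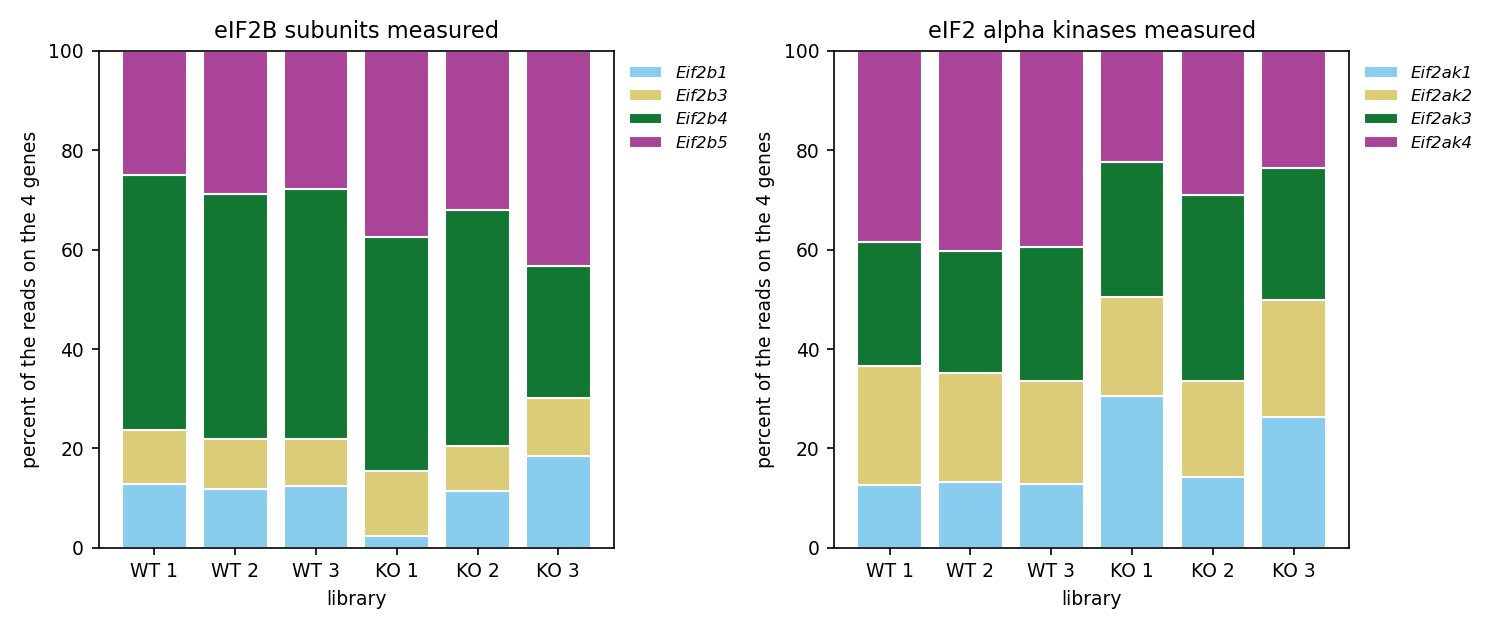
Percent of reads (y axis) that fell on each gene within the 4 eIF2B genes (left) and within the 4 kinase genes (right) in every library (x axis). The Eif2ak4 segment shrinks from 38.5% to 40.2% in WT to 22.3% to 29.1% in the knockout, and the Eif2b5 segment grows from 24.9% to 28.7% up to 31.9% to 43.3%.

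The members varied more between knockout libraries than between WT libraries. The coefficient of variation of the members was 3.29% to 11.9% in WT and 14.3% to 69.2% in the knockout, and it was larger in the knockout for 10 of 10 members. Among the 6683 tested genes with a mean of 30 to 300 normalized reads, the same held for 89.7%. The SD of a member over WT libraries was a median of 0.911 times its counting SD, and over knockout libraries 2.41 times. Eif2b4 and Eif2b1 stood highest, at 4.93 and 4.50 times in the knockout, and Eif2s2 lowest, at 1.37. All knockout libraries lay above all WT libraries for 3 members, Eif2b5, Eif2b3 and Eif2ak1, and below them for Eif2ak4. Over all genes tested, 16.9% lay wholly above and 22.9% wholly below, 39.8% in all.

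Levels of different genes were compared as normalized reads per kilobase of the deposited gene length. That length includes untranslated parts, where few footprints fall, so the order is a rough one. In WT the order ran from Eif2b4 at 84.7 ± 5.07 per kilobase (SD, n = 3) and Eif2b5 at 45.6 ± 1.84 through Eif2ak4 at 35.4 ± 2.35 and Eif2ak2 at 28.9 ± 0.953. Eif2ak3 at 28.5 ± 2.44 overlapped Eif2ak2 above it and Eif2s1 at 25.3 ± 1.86 below it. Eif2b1 at 21.0 ± 1.69, Eif2ak1 at 15.4 ± 1.02, Eif2s2 at 11.9 ± 1.41 and Eif2b3 at 6.81 ± 0.657 followed, each apart from its neighbours. In the knockout Eif2b4 at 99.2 ± 36.9 and Eif2b5 at 90.2 ± 12.9 per kilobase overlapped. Below them the neighbours in the order all overlapped, from Eif2ak3 at 30.3 ± 10.7 down to Eif2b3 at 10.9 ± 2.98. On this scale Eif2ak4 had rank 3 of 10 in WT and rank 8 in the knockout, at 20.2 ± 6.40 per kilobase.

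Other genes of the pathway were taken from lists of partners of eIF2, of regulators of the kinases with the phosphatases of eIF2 alpha, and of genes translated or induced when eIF2 alpha is phosphorylated. Among the regulators and phosphatases, limma called 5 of 14 higher and 1 lower, and the other 8 were not called. The count higher was 3 without WT replicate 3, with no variance trend and after thinning all libraries to equal depth, and the count lower was 2 without knockout replicate 1. The list's median log2 fold change was -0.064, beside -0.17 for all genes.

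Both regulators of GCN2 in that list were higher in the knockout, while Eif2ak4 itself was lower. Gcn1, the ribosome-bound activator of GCN2, held 914, 848 and 816 normalized reads in WT and 1487, 1111 and 1367 in the knockout, 1.54-fold higher (log2 fold change 0.61, limma adjusted p = 0.00673). Its call was lost under 3 of 22 alternatives: with no variance trend (adjusted p = 0.110), after thinning (adjusted p = 0.0560) and without WT replicate 3 (adjusted p = 0.0560). Impact, which competes with GCN2 for Gcn1 and so restrains it, held 51.9, 51.6 and 60.6 in WT and 138, 131 and 159 in the knockout. The groups of Impact lay far apart, 2.61-fold higher in the knockout (log2 fold change 1.37, SE 0.19, adjusted p = 0.00195), and its call held under all 22 alternatives.

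Hspa5, the chaperone BiP that keeps PERK inactive, rose from 3523 ± 341 to 7626 ± 204 normalized reads, 2.16-fold higher (limma adjusted p = 2.49e-05). Dnajc3, an inhibitor of PERK and PKR named after its values were seen, was not called, at a log2 fold change of 0.24. The catalytic subunits of protein phosphatase 1, which remove the phosphate from eIF2 alpha, moved apart. Ppp1cb rose 2.19-fold (adjusted p = 0.000533) and Ppp1cc fell 2.66-fold (adjusted p = 0.00393), both under all 22 alternatives. Ppp1ca, named after its values were seen, rose 1.26-fold (adjusted p = 0.0396). Its call was lost under 13 alternatives, among them each left-out library except knockout replicate 1 (adjusted p = 0.0612 to 0.140). These subunits are close relatives, so some reads may be shared. Ppp1r15a and Ppp1r15b, the partners that direct the phosphatase to eIF2 alpha, were read for their role and were not called, at log2 fold changes of -0.29 and -0.35.

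Of 15 partners of eIF2 in initiation, limma called 2 higher and 3 lower, and 10 were not called. Bzw1, which competes with eIF5 for eIF2, rose from 258 ± 18.3 to 445 ± 42.1 normalized reads (1.73-fold, adjusted p = 0.00264, called under all 22 alternatives). Eif5b, the GTPase that joins the ribosomal subunits, rose 1.52-fold (adjusted p = 0.0146). Leaving out any 1 WT library ended the call of Eif5b (adjusted p = 0.0637 to 0.0760) and so did library totals (adjusted p = 0.0743), no variance trend (adjusted p = 0.124) and thinning (adjusted p = 0.153). Lower, beside Eif2s3y, were Mcts1, a ribosome recycling and reinitiation factor with a close copy in the genome, and Eif1b, a paralog of the start codon factor eIF1. Mcts1 fell from 59.2 ± 5.23 to 6.31 ± 4.26 (adjusted p = 0.00764) and Eif1b from 59.8 ± 4.12 to 8.40 ± 7.51, with no read in knockout replicate 2 (adjusted p = 0.0363). Both lost their calls when any 1 WT library was left out (adjusted p = 0.0584 to 0.154). The number of partners called lower fell to 1 without WT replicate 1 or 3 and to 0 without WT replicate 2, and it was 5 without knockout replicate 1 and 6 with library totals. The count called higher was 1 without each WT library and 4 without knockout replicate 3.

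Among genes translated or induced when eIF2 alpha is phosphorylated, 11 of 12 were tested, 1 was called higher and 1 lower. Atf4, the transcription factor at the centre of the response, held 208, 231 and 218 normalized reads in WT and 228, 290 and 165 in the knockout. The knockout libraries lay on both sides of WT, and the log2 fold change was 0.017 with an interval of -0.44 to 0.47 (limma adjusted p = 0.962), the sign of which changed with the scaling. Atf4 is named here for its role, after its values were seen, and its footprints are totals that do not separate upstream reading frames from the coding sequence. Cebpg, a partner of ATF4 in dimers, rose from 39.6, 50.9 and 64.7 normalized reads in WT to 660, 535 and 554 in the knockout, 11.3-fold higher (log2 fold change 3.49, adjusted p = 1.77e-05), and was called under all 22 alternatives. Cebpb, a related factor of myeloid cells, fell 2.64-fold from 57.2 ± 10.3 to 21.6 ± 9.54 (adjusted p = 0.0352), a call that ended when any 1 WT library was left out (adjusted p = 0.0985 to 0.171). Without knockout replicate 3 the list had 2 genes higher and 2 lower. Trib3 was too low to test, and Asns, Ddit3, Chac1, Sesn2, Psat1, Vldlr, Atf3 and Atf5 were not called.

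**Figure D4:**
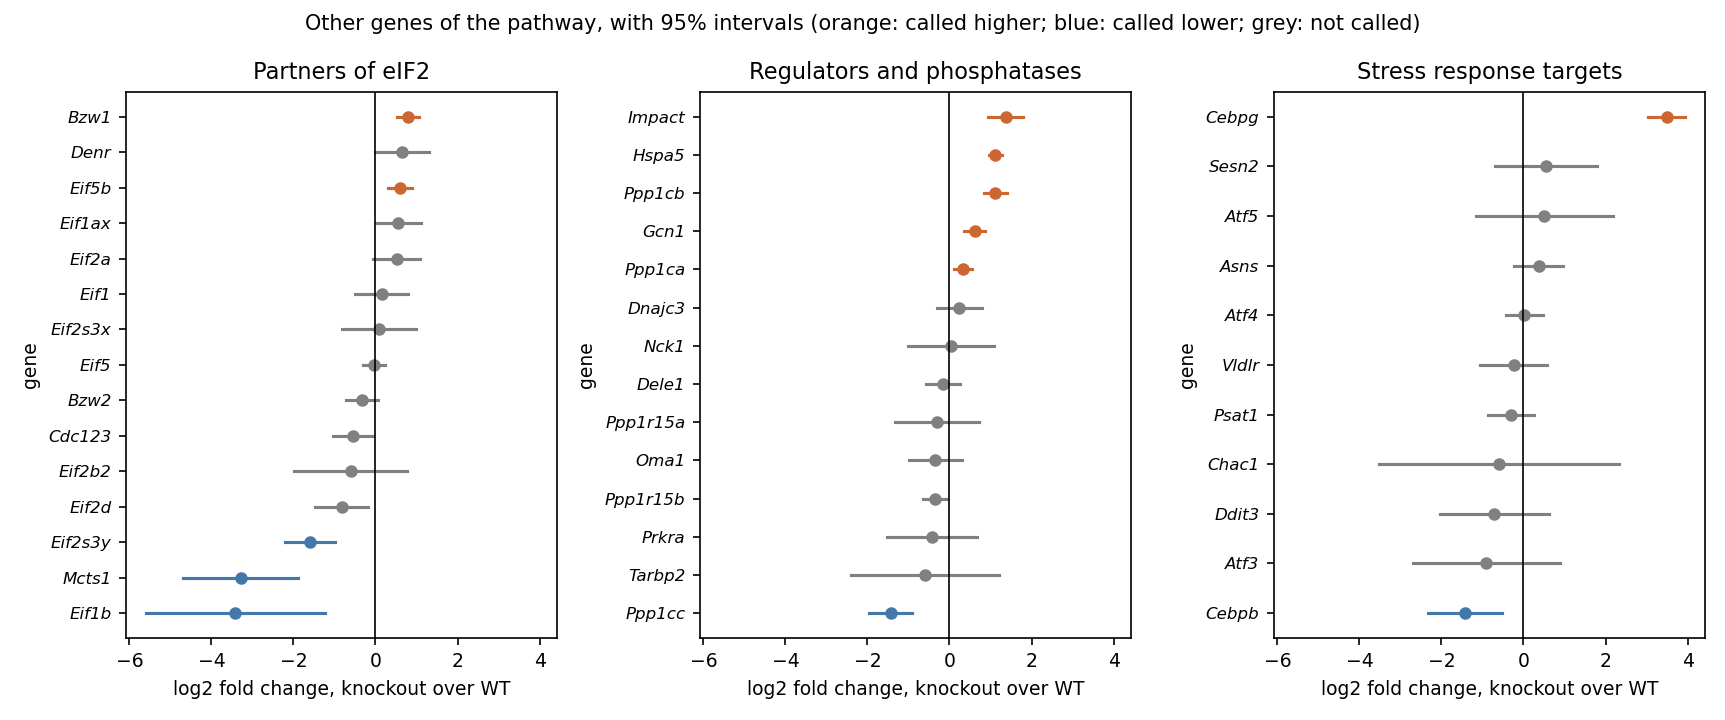
Log2 fold changes, knockout over WT (x axes), with 95% intervals from limma, for the partners of eIF2, the regulators and phosphatases, and the stress response genes tested. Calls higher (orange) and lower (blue) occur in each list, Cebpg at 3.49 is highest, and Atf4 sits at 0.017.

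Marker genes of the cells that the gate could hold were read in the same fit. All 8 stem and progenitor markers had reads, Kit among them at 1083 to 1115 normalized reads in WT and 1085 to 1157 in the knockout, and limma called 0 of 8, with 0 at an unadjusted p under 0.05 and 0 of the 7 that edgeR and DESeq2 each tested. Their sum was 1367 to 1394 in WT and 1321 to 1420 in the knockout, with Mecom and Procr at 0 in 1 knockout library each. Kit made up most of that sum, and the other 7 summed to 278 to 284 in WT and 236 to 264 in the knockout. Markers of other cells were read as well. Neutrophil markers summed to 30579 to 36467 in WT and 45676 to 47667 in the knockout (3 of 8 higher, 3 lower). That rise rested on Mpo, at 12660 ± 1426 and 29006 ± 782, and the other 7 summed to 19126 to 22234 in WT and 16916 to 17813 in the knockout. Markers of mast cells, basophils and eosinophils summed to 12685 to 15723 and 19269 to 21191 (4 of 5 higher). B cell markers summed to 1017 to 1053 and 1991 to 2158 (5 of 8 higher, Vpreb1 at 0 in 1 knockout library). Megakaryocyte markers summed to 452 to 521 and 553 to 858 (1 of 4 higher, Itga2b, and Gp1bb with no reads). Without Itga2b they summed to 142 to 159.7 in WT and 126 to 217 in the knockout. Monocyte markers summed to 1500 to 1789 and 1194 to 1456 (1 of 4 lower, and 1 higher by edgeR alone). That fall rested on Ly6c2, at 324 ± 40.1 in WT and 21.4 ± 21.2 in the knockout. Csf1r lay higher in every knockout library, at 306 ± 20.0 and 401 ± 59.2, and the groups of Ccr2 and Lyz2 overlapped. T cell markers summed to 43.6 to 57.8 and 43.4 to 77.6 (0 of 4 called by any of the 3 tools, 0 at an unadjusted p under 0.05). The part of these cells in the levels of Eif2b5, Eif2ak4 and the other members was not tested.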

How the data were processed

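Ribosome footprints of 3 WT and 3 Mov10 knockout libraries were read from a gene table in GRCm39, per the submitters' processing notes. Aligner, counter and annotation: not given in the sources used here. The deposited signal values behave as counts scaled by the authors with a size factor for each library: 99.98% of 107192 values above 0 were whole multiples, within 0.05 of a read, of what 1 read is worth there. The 5 genes with exceptions, none a member, were left out. The log2 fold changes, means, p-values and adjusted p-values deposited by the authors come from an unstated test.

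The test was limma 3.58.1 (R 4.3.3) with a variance trend, applied to log2(value + 1) of genes whose mean reached 1 normalized read; genotype was the single term. Fold changes on that scale depend on the pseudocount for low genes and can differ from the ratio of means, in either direction. Reads were recovered by dividing by the step and tested with edgeR 4.0.16 and DESeq2 1.42.0. Alternatives were other scalings (TMM, DESeq2 size factors, upper quartile, library totals), limma-voom, other variance models and library weights, filters and pseudocount, thinning to equal depth, a replicate block and each library left out. Reads carry no molecular identifiers. The Poisson and Wilson intervals cover counting error only, while the intervals of log2 fold changes come from the spread between libraries in limma. The procedure was tested on simulated data that gave both genotypes the same spread for each gene. That test therefore did not cover the larger spread seen within the knockout. Members and lists were chosen with earlier results of these data known. The rule named all 10 members, Mov10 and, of each pathway list, up to 4 called genes per direction with the smallest p. Figures were drawn with matplotlib 3.10.9.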

Additional observations from a re-analysis of the deposited data

How the results depend on the processing

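Over 22 alternatives, Eif2b5 kept its call in each, and Eif2ak4 kept its direction in each and its call in 17. The number of members called higher was 1 to 2 and the number called lower 0 to 1 over the 6 fits that lack 1 library each, and the number called lower was 0 with no variance trend. The median log2 fold change of the members ran from -0.058 to 0.13 over the left-out libraries. It was -0.15 with library totals, 0.19 with edgeR, 0.17 with DESeq2 and -0.046 after thinning to equal depth. Same-numbered libraries showed little shared deviation (correlations 0.0119, 0.0128 and -0.0062), and 2 of 3 WT libraries correlated best with the knockout library of their own number. With 3 libraries per genotype these values cannot tell whether the numbers pair libraries. A replicate block, which took the calls over all genes from 3628 to 3245, left the median at 0.076 with the same number of calls, 1 and 1, and among the called genes named here it ended the call of Ppp1ca (adjusted p = 0.0590).

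Signs changed for genes that were not called. With TMM, library totals, limma-voom and thinning, Eif2ak3 was at -0.036, -0.20, -0.059 and -0.074 and Atf4 at -0.053, -0.21, -0.064 and -0.25. With library totals Eif2b4 was at -0.081, Eif2s2 at -0.11 and Eif2s3x at -0.14. With thinning Eif2s2 was at -0.018 and Eif2s3x at -0.38, which was at -0.025 with limma-voom. Eif2b1 was at 0.24 with edgeR and 0.22 with DESeq2. Over the left-out libraries Eif2ak3 ran from -0.23 to 0.28, Atf4 from -0.17 to 0.23, Eif2b1 from -0.65 to 0.65, Eif2b2 from -1.06 to 0.14, Eif2b4 from -0.069 to 0.50, Eif2s2 from -0.016 to 0.23 and Eif2s3x from -0.35 to 0.51. Calls over all genes were 1449, 1284 and 1239 of about 17114 tested when WT replicate 1, 2 or 3 was absent, and 4585, 4447 and 4494 when knockout replicate 1, 2 or 3 was. Of the partners, 2 were lower and 1 higher with no variance trend, 5 lower with limma-voom and 1 lower among genes with a mean of at least 50. The regulators had 2 lower with TMM, library totals and limma-voom, and the stress response genes 0 lower with no filter, with no variance trend and at a mean of at least 50. The cause of these changes was not tested. Depth limited the knockout most, where the floor of 3 reads was 4.02 to 4.85 normalized reads, against 1.84 to 2.04 in WT.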
